A study of Homo sapiens with 4 samples.

Results

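The collagen and laminin genes encode the chains that form the scaffold of the extracellular matrix, and 56 of the 19689 protein-coding genes of GENCODE release 44 (hg38) carried such a name: a symbol of the form COL, digits, A and digits, or LAMA, LAMB or LAMC followed by a digit. They comprised 44 collagen and 12 laminin genes. Every member was assigned by its chain type to basement membrane (the 6 type IV collagens and the 12 laminins, 18 genes), fibrillar collagens (11 genes) or other collagens (27 genes).

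Open chromatin was mapped with the Tn5 transposase, which inserts sequencing adapters where DNA is accessible (ATAC-seq), in 2 libraries of C4-2B, a human prostate adenocarcinoma cell line, and 2 libraries of C4-2BER, its enzalutamide-resistant derivative. C4-2BER was obtained by keeping C4-2B under enzalutamide, an androgen receptor blocker, and its label describes it as neuroendocrine-like. Both lines were grown in RPMI with fetal bovine serum, C4-2BER was maintained with enzalutamide in the medium, which the labels do not name, and it is a single derived line, so drug exposure, resistance and the history of that line cannot be told apart. The authors merged the libraries of a line before peak calling, so each line has 1 list of peaks (149676 in C4-2B and 118728 in C4-2BER) and no comparison between the lines has a replicate check.

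Collagens are built from 3 chains that wind into a triple helix. Fibrillar collagens pack into the fibres of connective tissue, type IV collagens form the sheet-like network of basement membranes, and laminins, each an alpha, a beta and a gamma chain, form the second network of that membrane and bind the integrins of epithelial cells. In the prostate, the basement membrane separates the glandular epithelium from the stroma, and carcinoma cells make part of the matrix they contact.

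A peak is an interval in which more reads piled up than the local background; its summit is the position with the deepest pile. Reads at the summit are the number of extended reads covering that position, recovered from the deposited fold and p columns, and the recovered depth was 30.2 M reads (C4-2B) and 25.2 M reads (C4-2BER). The promoter is the 2000 bp on either side of any annotated start site of a protein-coding transcript, the main start site is that of the Ensembl canonical transcript, and the gene body runs from the first to the last annotated base. All shares carry Wilson 95% intervals, and read ratios carry exact conditional binomial 95% intervals, which cover counting error only. A gene without a peak can still hold reads below the calling threshold, since the weakest listed peaks held 8 reads (C4-2B) and 7 reads (C4-2BER). In such bulk samples, fewer open cells and a lower accessibility per cell cannot be told apart.

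Most collagen and laminin promoters held a peak in both lines. This was so for 45 of the 56 genes (80.4%, interval 68.2 to 88.7%), beside 77.7% of all protein-coding genes. A promoter peak in C4-2B only was found for 2 genes (3.57%, beside 2.83% of all genes), in C4-2BER only for 2 genes (3.57%, beside 3.39%), and in neither line for 7 genes (12.5%, beside 16.0%). The share in each status was thus near that of all genes. By class, 17 of 18 basement membrane genes had a promoter peak in both lines, as had 9 of 11 fibrillar and 19 of 27 other collagens.

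**Figure D1:**
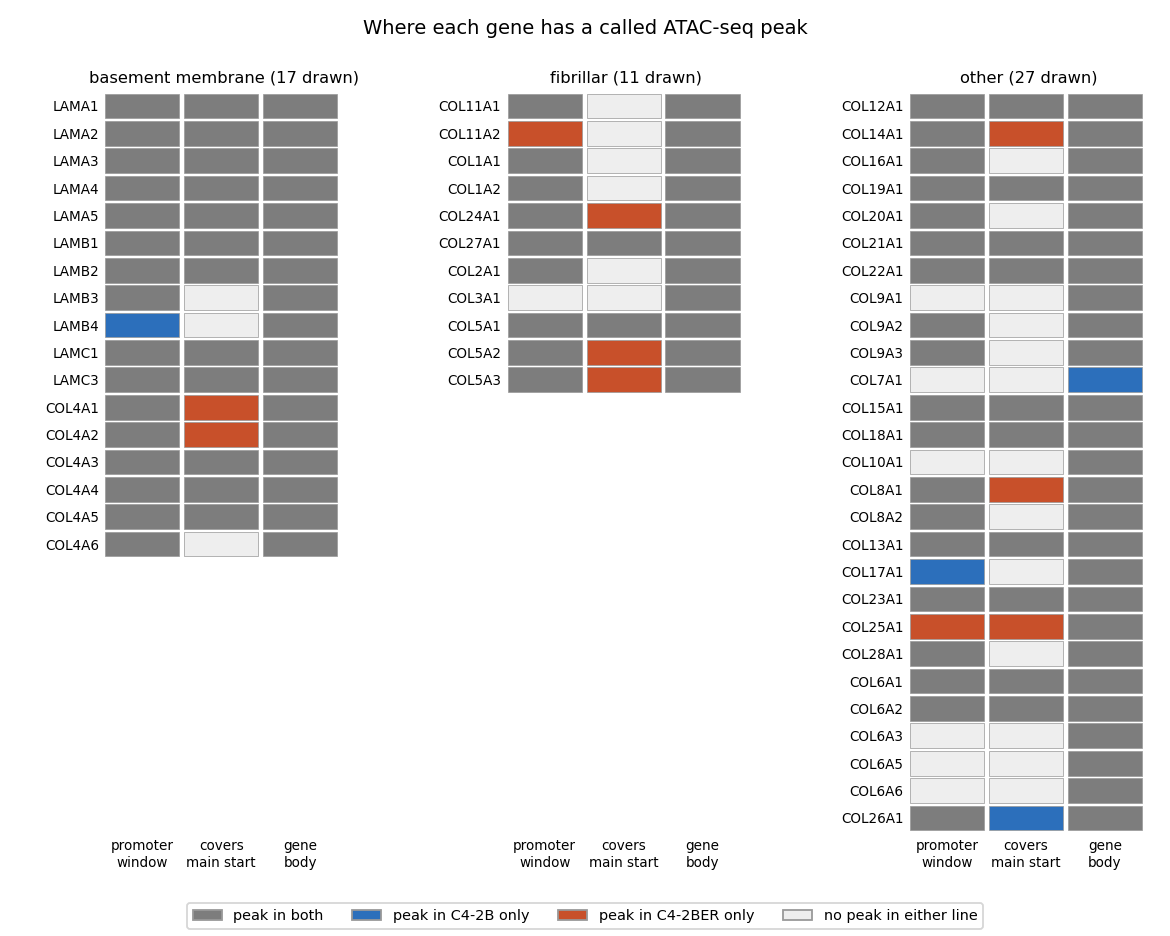
Presence of a called peak for 55 of the 56 genes (rows) in the promoter window, over the main start site and in the gene body (columns), for basement membrane, fibrillar and other genes. Grey marks a peak in both lines, blue in C4-2B only, orange in C4-2BER only and white in neither; gene bodies are grey for all drawn genes but COL7A1, and the middle column holds 8 orange tiles and 1 blue tile.

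COL25A1, which encodes a membrane-spanning collagen of neurons, had the strongest promoter peak found in 1 line only. Its C4-2BER peak, chr4:109302371-109303454, covered the main start site and held 98 reads at the summit (exact Poisson interval 79.6 to 119), with a −log10 q of 73.5. By −log10 p it ranked above 94.2% of the peaks of that list. No C4-2B peak lay within 2000 bp of any COL25A1 start site, and this assignment was the same at −log10 q thresholds of 5 and 10, with a 1000 bp window, with 1 start site per gene and with equal numbers of top peaks. The gene body of COL25A1 did not follow its promoter: it held 11 peaks outside promoters in each line, of which 9 in each list overlapped. The 121 bases around the promoter summit, at −299 bp from the main start site (negative distances are upstream) on the minus strand of hg38 (chr4:109302897-109303017), are shown because this is the site open in C4-2BER alone, with a CCAAT match (CCAAT, either strand) in capitals.
COL25A1: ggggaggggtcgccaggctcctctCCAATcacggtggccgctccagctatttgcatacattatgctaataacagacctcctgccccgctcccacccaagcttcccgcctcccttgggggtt
Each sequence shown was searched for 8 motifs (AP-1, forkhead, androgen response element, E-box, PBX-HOX, GC box, CCAAT and TATAAA), and only those that matched are named. A CCAAT match was present in 20.0% of windows of this length around the promoter summits of all genes in C4-2BER.

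The other 3 promoters assigned to 1 line rested on fewer reads. COL11A2, a minor fibrillar chain of cartilage, had a C4-2BER peak of 19 reads (−log10 q of 5.44) at chr6:33192078-33192296, 289 bp downstream of its main start site, whose summit window overlapped coding sequence and which was lost at a −log10 q of 10. COL17A1, the membrane collagen of hemidesmosomes by which basal epithelial cells attach to the basement membrane, had a C4-2B peak of 22 reads (−log10 q of 13.2) at chr10:104080823-104081074, next to an internal start site, 4927 bp downstream of the main one. LAMB4, a laminin beta chain of which little is known, had a C4-2B peak of 10 reads (−log10 q of 2.92) at chr7:108063537-108063736, 66.7 kb inside the gene. With 1 start site per gene, COL17A1 and LAMB4 had no promoter peak in either line. The COL17A1 and COL11A2 windows (121 bases around the summit, both on the minus strand of hg38, at chr10:104080893-104081013 and chr6:33192118-33192238) are set side by side because they are the strongest remaining sites of each line, with matches to TATAAA on either strand in capitals.
COL17A1: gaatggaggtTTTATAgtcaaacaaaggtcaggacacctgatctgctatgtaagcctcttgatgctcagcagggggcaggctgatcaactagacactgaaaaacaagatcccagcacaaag
COL11A2: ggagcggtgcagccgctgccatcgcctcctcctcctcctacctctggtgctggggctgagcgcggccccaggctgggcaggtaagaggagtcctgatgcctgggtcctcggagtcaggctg
The COL17A1 window held 46.3% G and C and 0 CpG, and the COL11A2 window 69.4% and 6 CpG. A TATAAA match was found in 2.40% of such windows over the promoter summits of all genes in C4-2B.

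The 7 genes without a promoter peak in either line were COL3A1, the fibrillar collagen of vessels and soft tissue, COL9A1 and COL10A1 of cartilage, COL6A3, COL6A5 and COL6A6 of the beaded filaments of type VI collagen, and COL7A1, the collagen of anchoring fibrils below the epidermis. All of these but COL7A1 nevertheless had a gene body peak in both lines. The other 2 type VI chains, COL6A1 and COL6A2, had promoter peaks over their main start sites in both lines, with 63 and 70 reads at COL6A1 and 72 and 58 at COL6A2 (C4-2B first). COL6A1 and COL6A2 were chosen after their values were seen.

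Base composition around the main start site differed with promoter status, as a description of the annotation. Within 500 bp on either side, G and C made up a median of 64.3% in the 45 genes open in both lines and 48.7% in the 7 genes open in neither, beside 63.3% and 49.2% over all genes of the same status. The ratio of observed to expected CpG was below 0.6, a level usually taken as CpG poor, in 20 of the 45 collagen and laminin genes open in both lines (44.4%) and in 19.7% of all genes open in both lines. COL28A1 (a CpG ratio of 0.0793) and COL5A2 (0.360) were among those CpG-poor members. Their shared promoter peaks lay near other start sites than the one whose composition was taken. The other CpG-poor members of this group, such as LAMB3 (0.223) and COL1A1 (0.487), had a peak within 2000 bp of the main start site in both lines. The genes named here were chosen after their values were seen.

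The position of the peak relative to the main start site gave a different picture from the promoter window. A peak covered the main start site in both lines in 24 of 56 genes (42.9%, beside 64.6% of all genes), in C4-2B only in 1 gene (COL26A1, 1.79%, beside 1.31%) and in C4-2BER only in 9 genes (16.1%, interval 8.69 to 27.8%, beside 5.51%). This count was chosen after the data were seen. Among the 9 genes were COL4A1, COL4A2, COL5A2, COL5A3, COL24A1, COL14A1, COL8A1 and COL25A1, and COL4A1 and COL4A2 share 1 peak. In 6 of the 9 (COL4A1, COL4A2, COL5A2, COL8A1 and COL25A1 among them) the covering peak overlapped no C4-2B peak at all, which is 10.7% of members (interval 5.00 to 21.5%) beside 4.17% of all genes. A peak shared by neighbouring genes, as at COL4A1 and COL4A2, is counted for each gene, and the intervals do not cover this dependence. The reverse, a C4-2B peak over the main start site with no overlapping C4-2BER peak, was found in 0 of 56 members (upper bound 6.42%) beside 0.863% of all genes. In another 3 (COL5A3, COL24A1 and COL14A1) the C4-2BER peak reached over the start site and overlapped a C4-2B peak that stopped short of it. COL26A1 was of this kind too, since its C4-2B and C4-2BER peaks of 75 and 58 reads overlapped and only the former reached the start site.

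**Figure D2:**
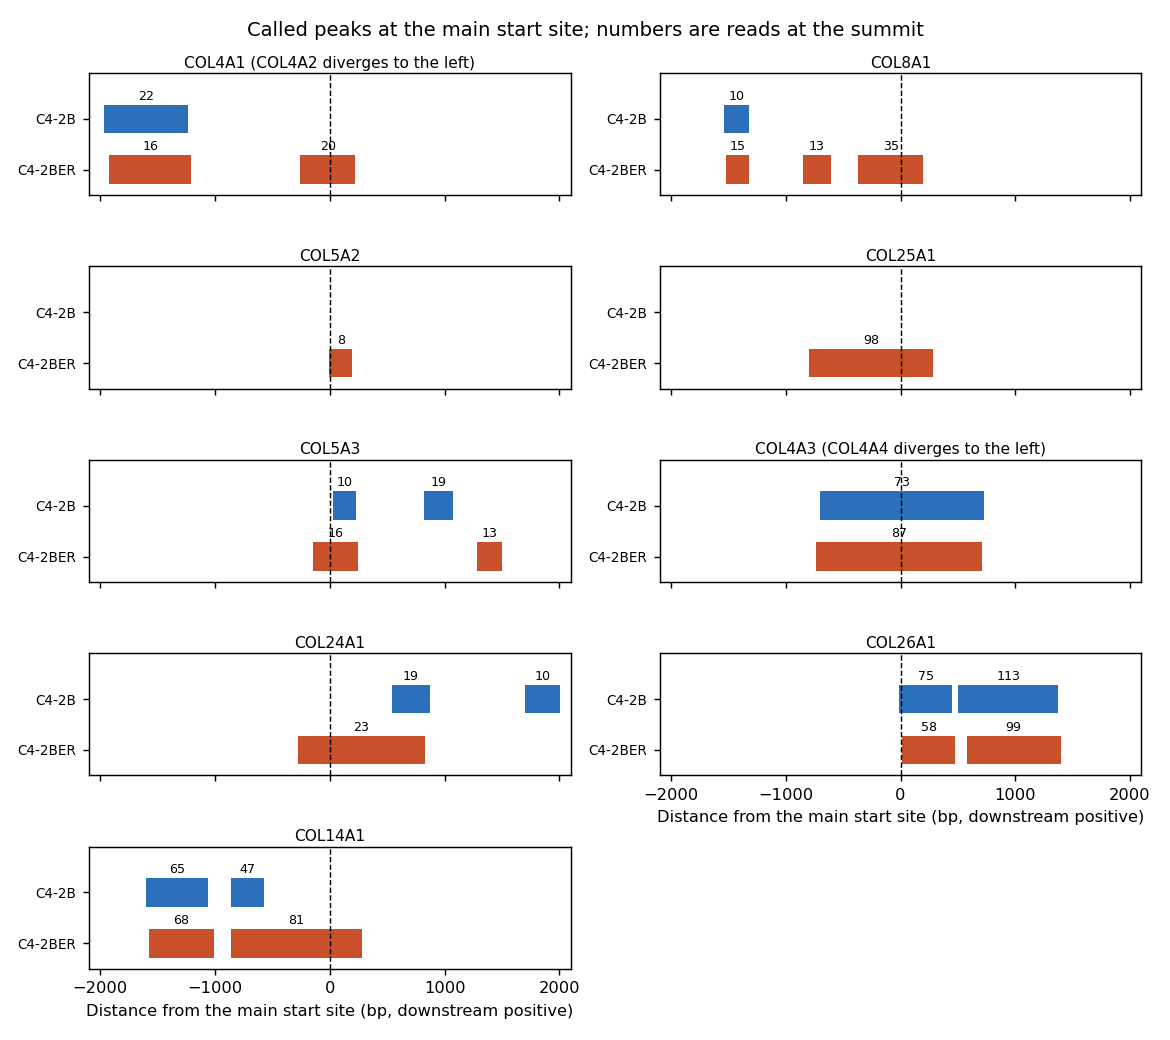
Called peaks within 2000 bp of the main start site of 9 genes, drawn to scale in bp with C4-2B above (blue) and C4-2BER below (orange), the start site as a dashed line and the reads at each summit as a number. In COL25A1, COL5A2, COL8A1 and COL4A1 the peak over the dashed line has no C4-2B counterpart, while COL4A3 has a peak of the same extent in both lines.

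COL8A1, a short-chain collagen of vessel walls, had a C4-2BER peak of 35 reads (−log10 q of 20.3) over its main start site at chr3:99638224-99638794. C4-2B had its only COL8A1 promoter peak at −1441 bp, with 10 reads. C4-2BER had a peak there as well, with 15 reads. COL5A2, a chain of the collagen that sets fibril diameter, had 8 reads in C4-2BER at its main start site, close to the weakest peak of the list. Its stronger promoter peak lay near another start site far upstream, with its summit at −46424 bp and 24 and 21 reads.

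The 6 type IV genes stand head to head in 3 pairs, so a peak between them is the same measurement for both genes. COL4A1 and COL4A2, the chains of nearly all basement membranes, start 127 bp apart on chromosome 13. The peak over both start sites, chr13:110306935-110307416, was found in C4-2BER only and held 20 reads (interval 12.2 to 30.9, −log10 q of 8.37). A separate peak inside COL4A2, with summits 1436 and 1659 bp from its main start site in C4-2B and C4-2BER, was present in both lines, with 22 and 16 reads, and lay within 2000 bp of both main start sites. Each gene had a further shared promoter peak within 2000 bp of an internal start site, with 10 and 12 reads in COL4A1 and 167 and 110 in COL4A2. COL4A3 and COL4A4, chains of the kidney glomerulus, start 419 bp apart on chromosome 2 and shared a strong peak in both lines. It held 73 reads (C4-2B, chr2:227163926-227165350) and 87 reads (C4-2BER, chr2:227163890-227165331), a ratio at equal depth of 1.43 (interval 1.03 to 1.97). COL4A5 and COL4A6, on the X chromosome 1416 bp apart, shared a peak of 65 and 58 reads (ratio 1.07, interval 0.736 to 1.55). The bases between the nearest start sites of the first and second pair (plus strand of hg38, chr13:110307158-110307257 and chr2:227164454-227164623) are shown because they lie directly upstream of these start sites. The first interval also lies within the annotated COL4A2 gene, which begins further upstream. GC boxes (GGGCGG, either strand) and CCAAT matches are in capitals.
COL4A1 and COL4A2: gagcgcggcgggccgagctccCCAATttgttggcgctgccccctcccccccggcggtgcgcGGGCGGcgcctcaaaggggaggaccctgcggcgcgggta
COL4A3 and COL4A4: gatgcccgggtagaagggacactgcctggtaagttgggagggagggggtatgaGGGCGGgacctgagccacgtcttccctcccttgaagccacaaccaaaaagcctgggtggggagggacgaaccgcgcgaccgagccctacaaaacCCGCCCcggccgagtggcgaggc
A GC box was present in 45.8% of the 100-base and 54.7% of the 170-base windows before the main start site of all genes, and a CCAAT match in 20.9% and 28.2%. Over the RefSeq promoters (GRCh38.p14, a window of 300 bases around the start) of the 41 members with an entry, 24 held a GC box (58.5%, beside 59.2% of 15307 promoters) and 11 a CCAAT match (26.8%, beside 36.6%).

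Where both lines had overlapping promoter peaks, the reads at the summit were close to each other at equal depth. The ratio of C4-2BER to C4-2B had a median of 1.07 over the 45 genes (quartiles 0.946 and 1.27), and 30 of the 45 ratios were above 1 (66.7%, beside 74.9% of all genes). For each gene, the ratio is that of the overlapping pair with the most reads at equal depth. Over all 15124 genes with such a pair the median was 1.10, a shift of 0.14 on the log2 scale that all genes share. The interval of the ratio lay above 1 in 3 of the 45 genes (6.67%, beside 10.8% of all genes) and below 1 in 2 (4.44%, beside 3.39%). Divided by the median of all genes, a step added after the data were seen, 0 genes had an interval above 1 (beside 5.24% of all genes) and 3 had one below it (6.67%, beside 5.73%). Over all 77 overlapping pairs of promoter peaks, also counted after the data were seen, 7 genes had a pair with an interval above 1 (15.6%, beside 18.7% of all genes) and 7 a pair below 1 (15.6%, beside 11.5%). Such pairs can join summits that lie apart within wide peaks. The median was 1.07 for basement membrane genes, 1.17 for fibrillar collagens and 1.07 for other collagens.

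**Figure D3:**
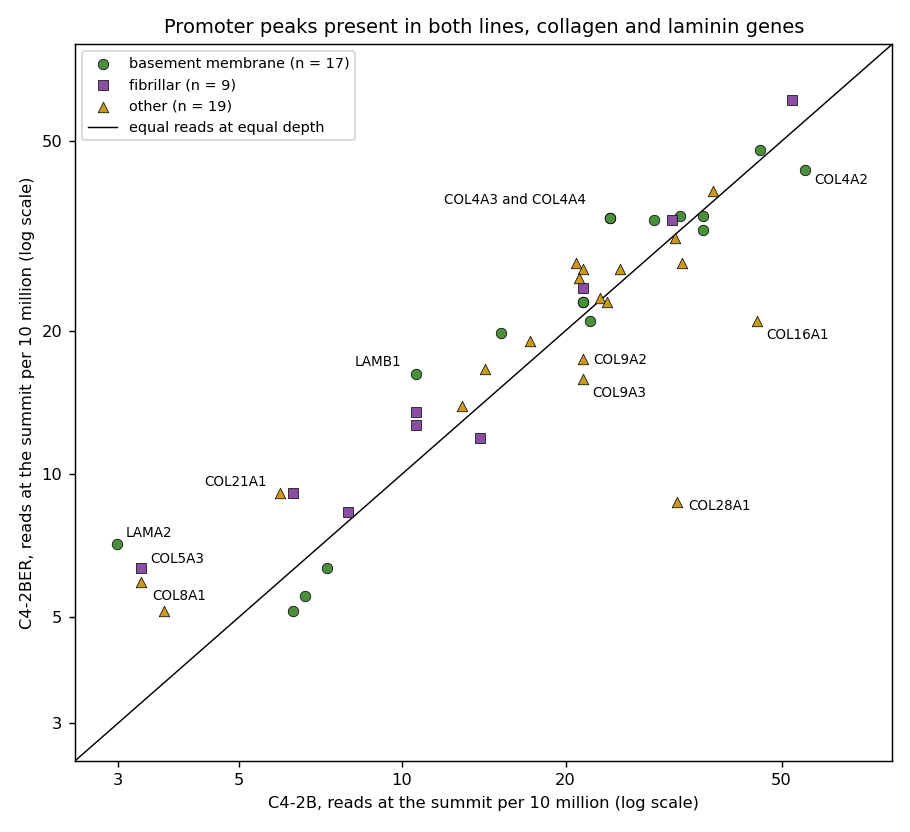
Reads at the summit per 10 M recovered reads in C4-2B (x) and C4-2BER (y), both on log scales, for the overlapping promoter peaks of 45 genes, with equality as a line. Most points lie along the line; COL28A1 and COL16A1 lie below it, and LAMA2, COL5A3 and COL8A1 above it at low read numbers.

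Over the strongest pairs, the 2 members with an interval below 1 were COL28A1 and COL16A1. At COL28A1, a collagen with von Willebrand factor A domains described in peripheral nerve, the peak held 97 reads in C4-2B and 22 reads in C4-2BER, a ratio of 0.271 (interval 0.163 to 0.435). It lay at an internal start site 96.8 kb downstream of the main one, and the main start site of COL28A1 had no peak in either line. At COL16A1, a fibril-associated collagen that integrins bind, the peak upstream of the main start site held 136 and 53 reads, a ratio of 0.466 (interval 0.333 to 0.645). The same C4-2B peak overlapped a further C4-2BER peak of 30 reads. COL16A1 had 2 further promoter peaks present in both lines: that 19.8 kb downstream of the main start site held 50 and 29 reads (ratio 0.694, interval 0.423 to 1.12), and that 7559 bp downstream held 82 and 17 (ratio 0.248, interval 0.138 to 0.422). The COL28A1 and COL16A1 windows (121 bases around the C4-2B summit, both on the minus strand of hg38, chr7:7439013-7439133 and chr1:31704801-31704921) are shown because these are the strongest promoter pairs of the 2 genes with the lowest ratios, with AP-1 matches (TGANTCA, either strand) in capitals.
COL28A1: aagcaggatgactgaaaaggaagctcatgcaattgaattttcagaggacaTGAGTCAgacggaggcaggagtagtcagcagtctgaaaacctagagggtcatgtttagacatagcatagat
COL16A1: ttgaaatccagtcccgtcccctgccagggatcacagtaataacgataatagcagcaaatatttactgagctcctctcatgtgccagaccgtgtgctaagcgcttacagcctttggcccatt
An AP-1 match was found in 3.53% of windows of this length over the promoter summits of all genes in C4-2B.

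The next lowest ratios belonged to COL9A3 (65 and 40 reads, 0.736, interval 0.484 to 1.11), COL4A2 (167 and 110 reads, 0.788, interval 0.614 to 1.01) and COL9A2 (65 and 44 reads, 0.810, interval 0.540 to 1.21). The C4-2B summit of COL4A2 lay 1449 bp downstream of an internal start site and 200633 bp from the main one. The same C4-2B peak overlapped a further C4-2BER peak of 67 reads (ratio 0.480, interval 0.356 to 0.641), so the ratio of 0.788 takes 1 part of a split counterpart. COL9A2 and COL9A3 encode chains of the cartilage collagen IX, and their intervals include 1. COL4A2 was the further gene below 1 after division by the median of all genes.

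Over the strongest pair of each gene, the highest ratios came from peaks of few reads. COL14A1, a fibril-associated collagen, had a further pair of 47 and 81 reads with a ratio of 2.06 (interval 1.42 to 3.02) beside its strongest pair of 65 and 68, and was chosen after its values were seen. LAMA2, the alpha chain of muscle laminin, had 9 and 18 reads (C4-2B first) in the overlapping peaks at its main start site (ratio 2.39, interval 1.02 to 6.05). C4-2B had a further peak of 15 reads at −376 bp from that site, which overlapped no C4-2BER peak, so the ratio is that of 1 of the neighbouring C4-2B peaks only. The ratios of COL5A3 (10 and 16 reads, 1.91), COL8A1 (10 and 15 reads, 1.79), LAMB1 (32 and 41 reads, 1.53) and COL21A1 (18 and 23 reads, 1.53) had intervals that include 1. LAMB1 encodes the beta chain of the most widespread laminins, COL5A3 a chain of the fibril-regulating collagen V, and COL21A1 a fibril-associated collagen of vessel walls. Among these strongest pairs, LAMA2 and the shared promoter of COL4A3 and COL4A4 had an interval above 1.

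All but 1 of the gene bodies held a peak in both lines. This was so for 55 of 56 genes (98.2%), beside 84.5% of all genes. A share near this is usual for long genes: the members had a median length of 125 kb, and 98.4% of all genes of at least 50 kb had a gene body peak in both lines. COL7A1 was the exception, with peaks in C4-2B only (1.79% of members, beside 2.25% of all genes), namely 43 reads at chr3:48577208-48577548 and 19 reads at chr3:48565972-48566315, both in introns. In 0 members was the gene body open in C4-2BER only (beside 1.85%) or in neither line (beside 11.4%).

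Within the gene bodies, the C4-2B list had more peaks than the C4-2BER list. Outside promoters it had 432 against 336, and 35 genes had more in C4-2B, 8 had more in C4-2BER and 13 had equal numbers. The shares of 62.5% and 14.3% stand beside 35.7% and 9.13% of all genes, and beside 66.4% and 13.5% of all genes of at least 50 kb. Of the C4-2B peaks, 176 overlapped no C4-2BER peak (40.7%, interval 36.2 to 45.4%), beside 42.6% of such peaks of all genes. Of the C4-2BER peaks, 75 overlapped no C4-2B peak (22.3%, interval 18.2 to 27.1%), beside 21.4%. The shares of the collagen and laminin genes were thus near those of all genes. The C4-2B list is the deeper and longer one. With C4-2B scaled to the depth of C4-2BER the shares were 40.6% and 22.3%, the latter unchanged. With equal numbers of top peaks in each list they were 32.8% and 29.5%, so the gap depended on list length. The cause of the difference between the lists was not tested. Introns held 162 of the 176 C4-2B-only and 72 of the 75 C4-2BER-only summits. The C4-2B-only peaks held a median of 19 reads and the C4-2BER-only peaks 11, and 78 of the former (44.3%) but 9 of the latter (12%) had a −log10 q of 10 or more, beside 37.8% and 16.2% over all genes. Another protein-coding gene overlapped 5 of the 432 and 4 of the 336 peaks, in COL10A1, COL18A1, COL9A3 and LAMA4.

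**Figure D4:**
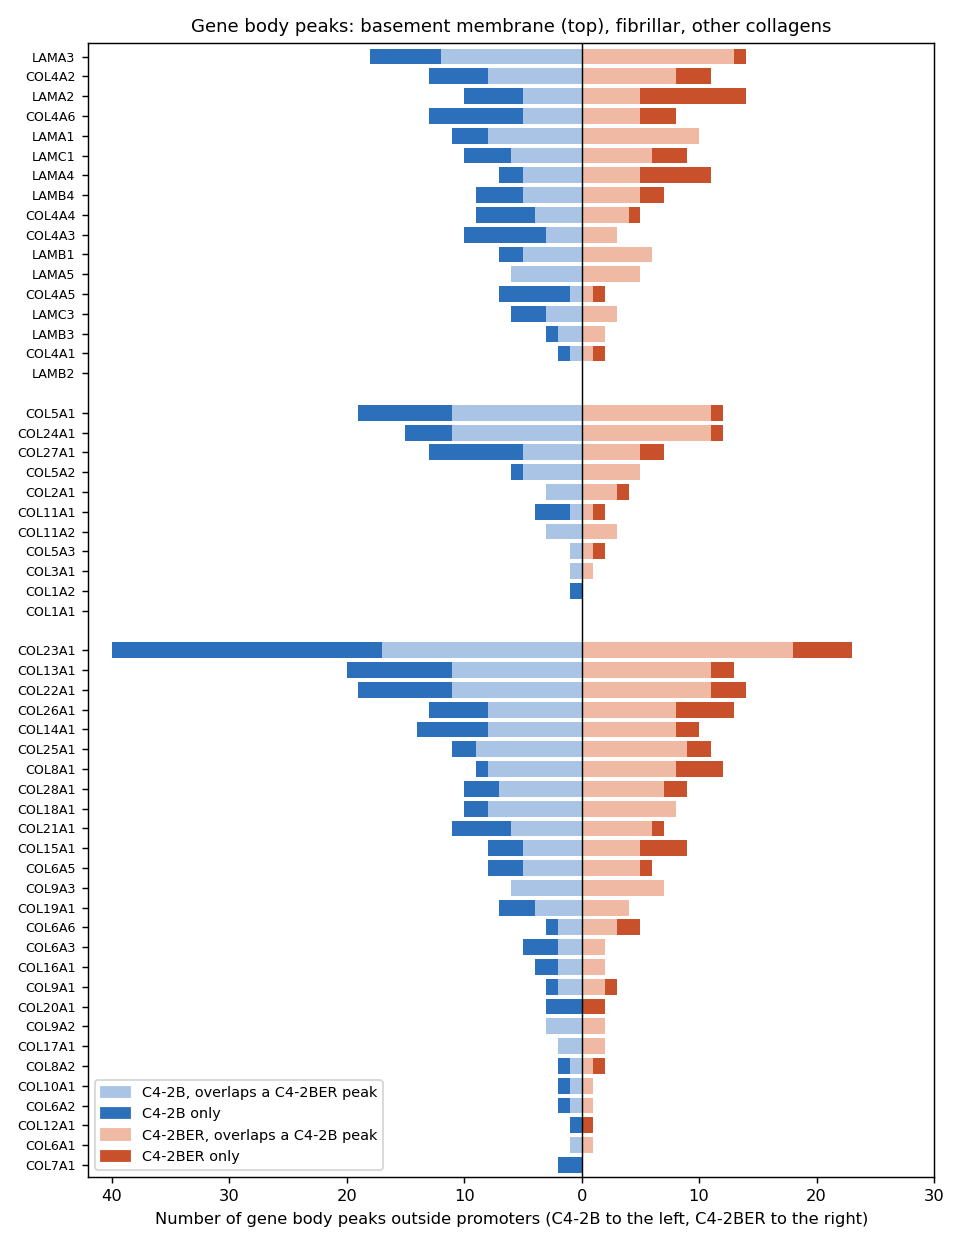
Number of gene body peaks outside promoters per gene (55 of the 56 genes), C4-2B to the left (blue) and C4-2BER to the right (orange), with light bars for peaks that overlap a peak of the other line and dark bars for those that do not. COL23A1 has the longest bars (40 and 23 peaks), and LAMA2 and LAMA4 have dark orange bars longer than their dark blue ones.

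The type IV genes had the highest share of C4-2B-only peaks among the chain types with more than 20 C4-2B peaks, a comparison chosen after the values were seen. Of their 54 C4-2B peaks, 32 had no C4-2BER counterpart (59.3%, interval 46.0 to 71.3%), beside 42.6% of all genes, and of their 31 C4-2BER peaks 9 had no C4-2B counterpart (29.0%). The interval treats peaks of the same gene as independent and does not cover the spread between genes. That spread ran from 5 of 13 C4-2B peaks in COL4A2 to 6 of 7 in COL4A5. The share was 30.8% (16 of 52) in the laminin alpha genes, 37.9% (25 of 66) in the fibrillar collagens and 46.6% (34 of 73) in the transmembrane collagens. COL4A3 had 10 gene body peaks in C4-2B and 3 in C4-2BER, and COL4A5 had 7 and 2, while the ratios of their promoter peaks at equal depth were 1.43 and 1.07. COL4A3 and COL4A5 were chosen after their values were seen.

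COL23A1, a membrane-spanning collagen that is shed from the cell surface, had the most peaks of any member by number. Its body held 40 (C4-2B) and 23 (C4-2BER), of which 23 and 5 were in 1 line only, at a promoter of nearly equal reads (70 and 59, ratio 1.01, interval 0.701 to 1.45). COL23A1 spans 353 kb. Per 100 kb it held 11.3 C4-2B peaks, beside a median of 5.75 over the members, and some members, among them COL13A1 (12.3), held more. COL13A1, a related membrane collagen of cell contacts and the neuromuscular junction, followed by number with 20 and 13 peaks, 9 of them C4-2B only and 2 C4-2BER only. COL4A6, COL5A1, COL27A1 and COL22A1 tied next with 8 C4-2B-only peaks each.

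LAMA2 and LAMA4, the alpha chains of muscle and of vessel laminins, were among the 8 genes with more peaks in C4-2BER. LAMA2 had 10 and 14 peaks (C4-2B first), with 5 C4-2B-only and 9 C4-2BER-only peaks, so both lists held sites there that the other lacked. LAMA4 had 7 and 11 peaks, with 2 and 6 in 1 line only, and its promoter peak held 46 and 50 reads (ratio 1.30, interval 0.854 to 1.98). COL23A1 and COL26A1, a collagen of which little is known, tied next with 5 C4-2BER-only peaks each, and COL26A1 had as many C4-2B-only ones (5, of 13 peaks in each line).

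**Figure D5:**
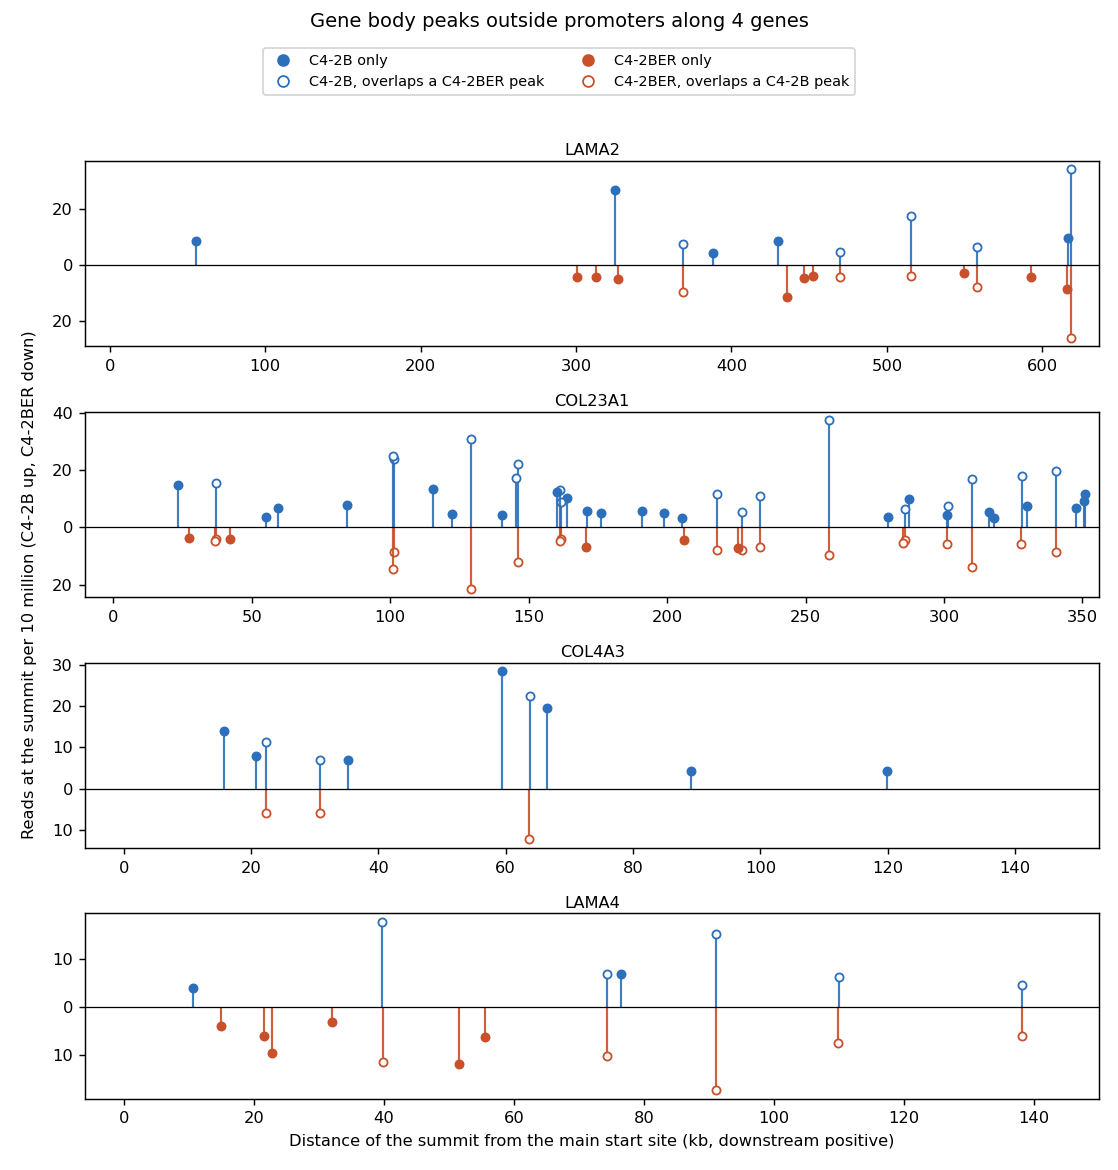
Summits of gene body peaks outside promoters along LAMA2, COL23A1, COL4A3 and LAMA4, in kb from the main start site (x), with height as reads per 10 M recovered reads, C4-2B upward (blue) and C4-2BER downward (orange), filled where the other line has no overlapping peak. In COL4A3 every C4-2BER symbol is open and 7 of 10 C4-2B symbols are filled, and in LAMA2 9 of 14 C4-2BER symbols are filled.

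The strongest line-only gene body peaks are given by −log10 q, a choice made after the data were seen. That of C4-2B lay in a LAMA2 intron 324.9 kb downstream of the main start site (chr6:129207733-129208269, 81 reads, −log10 q of 75.0). It was followed by an intron peak of LAMA3, the alpha chain of the epithelial anchoring laminin (chr18:23725595-23726406, 98 reads, −log10 q of 74.1), and 1 of COL4A2 (chr13:110431719-110432271, 79 reads, −log10 q of 71.9). The strongest C4-2BER-only peaks were lower. They lay in introns of COL9A1 (chr6:70270371-70271197, 35 reads, −log10 q of 26.2), a gene without a promoter peak in either line, of LAMA2 (chr6:129318308-129318794, 29 reads, −log10 q of 22.6) and of COL26A1 (chr7:101410945-101411554, 32 reads, −log10 q of 20.0). The LAMA2 and LAMA3 windows in C4-2B and the LAMA2 window in C4-2BER (121 bases around the summit, plus strand of hg38, chr6:129207972-129208092, chr18:23725967-23726087 and chr6:129318564-129318684) are shown because they are the leading sites of each line, 2 of them in the same gene, with matches to forkhead (TGTTTAC) and CCAAT on either strand in capitals.
LAMA2 in C4-2B: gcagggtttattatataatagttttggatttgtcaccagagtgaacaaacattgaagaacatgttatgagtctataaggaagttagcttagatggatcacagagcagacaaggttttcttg
LAMA3 in C4-2B: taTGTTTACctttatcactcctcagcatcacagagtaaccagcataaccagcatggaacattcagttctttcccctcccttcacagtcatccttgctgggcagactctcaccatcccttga
LAMA2 in C4-2BER: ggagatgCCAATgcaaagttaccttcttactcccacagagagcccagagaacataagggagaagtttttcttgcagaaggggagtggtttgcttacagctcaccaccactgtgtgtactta
A forkhead match was found in 7.79% of windows of this length over all gene body peaks of C4-2B, and a CCAAT match in 15.4% of them in C4-2B and 16.2% in C4-2BER.

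Short sequence motifs were counted within 100 bp of the gene body summits, on both strands. The forkhead motif, bound by the pioneer factor FOXA1 of the prostate epithelium, was present at 24 of the 176 C4-2B-only peaks (13.6%, interval 9.34 to 19.5%) and at 3 of the 75 C4-2BER-only peaks (4%, interval 1.37 to 11.1%). The same shares over all genes were 12% and 5.88%. The AP-1 motif (TGANTCA) was at 11.9% of the C4-2B-only and 16.0% of the C4-2BER-only peaks, beside 10.8% and 9.63% over all genes. The GC box was at 5.68% and 10.7%, beside 3.69% and 8.35%, and the E-box (CAGCTG) at 15.9% and 16.0%, beside 12.7% and 13.4%. The PBX-HOX motif (TGATTNAT) was at 3.98% and 4%, beside 2.88% and 3.43%. The full androgen response element, AGAACA and TGTTCT with 3 bases between, was at 0 of the 176 (upper bound 2.14%) and 0 of the 75 peaks (upper bound 4.87%), beside 0.0761% and 0% over all genes. A match describes letters and no binding, and the intervals of the 2 lines overlapped for each of these motifs in the members.

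Genes that modify, bind or cut collagens and laminins were scored in the same way. Beside them stand all protein-coding genes: 77.7% had a promoter peak in both lines, 2.83% in C4-2B only, 3.39% in C4-2BER only and 16.0% in neither. Of 24 genes of collagen modification, folding, processing and crosslinking, 23 had a promoter peak in both lines and LOXL4, a lysyl oxidase, in neither. Of 16 receptors, 14 had one in both lines, GP6, the platelet collagen receptor, in neither, and LAIR1, an inhibitory collagen receptor of immune cells, in C4-2B only with 11 reads. Of 13 matrix proteases and their inhibitors, 9 had one in both lines and 3 in neither, and MMP2, a gelatinase that cleaves type IV collagen, had one in C4-2B only (40 reads, −log10 q of 19.5, chr16:55389428-55390039). Of the 5 other basement membrane genes, HSPG2 and AGRN had one in both lines and SPARC in neither. The remaining 2 were NID1 and NID2, the nidogens that link the laminin network to the type IV network, and both had a promoter peak in C4-2BER only. NID1 held 71 reads (−log10 q of 38.0, chr1:236064717-236065473) and NID2 62 reads (−log10 q of 41.5, chr14:52068777-52069761). A peak in both lines did not mean equal reads. The interval of the read ratio lay above 1 in 4 of 23 genes of that first list, 3 of 14 receptors and 3 of 9 proteases and inhibitors. It lay below 1 in 0, 1 and 1 of them, beside 10.8% above and 3.39% below over all genes.

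Markers of the labelled cell types were open in both lines, as were the promoters of 77.7% of all genes. All 6 prostate luminal markers had a promoter peak in both, with 171 and 45 reads at KLK3, the gene of prostate-specific antigen (ratio 0.315, interval 0.221 to 0.440). All 6 neuroendocrine markers had one in both lines as well, and the overlapping peaks held 18 and 59 reads at NCAM1. KLK3 and NCAM1 were chosen after their values were seen. Of 7 fibroblast markers, 4 had a promoter peak in both lines, FAP in C4-2B only, LUM in C4-2BER only and POSTN in neither. The part of other cells in the results above was not tested.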

How the data were processed

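ATAC-seq was carried out in 2 libraries of C4-2B and 2 of C4-2BER. According to the methods, the authors aligned trimmed reads to hg38 (Bowtie2), kept confident alignments and removed duplicates (Picard) (FastQC and bedtools 2.17 are further named in the submitters' processing notes), and macs2 (version not given in the sources used here) called peaks on the merged replicates without a model, with a 200 bp extension and a shift printed as 100. The shift sets where summits fall, and the mapping filter drops reads without a confident position. The deposited peak lists give, for each summit, a fold over background (a ratio), the −log10 p-value and the −log10 q-value, all 3 made by the authors' peak caller; samples have no values of their own.

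The whole number of reads at each summit was recovered from fold and p for 100% of summits in both lists (largest error in −log10 p 0.000259, tolerance 0.001), and the depth from the lowest background. The weakest summits had 8 and 7 reads, which bounds what could be detected. Genes and start sites came from GENCODE 44, whose build is that of the lists. Peaks were matched at an overlap of 1 bp. Overlap and recovery were tested on simulated data. Since each line had 1 merged list, no test between lines was made: counts and shares carry Wilson 95% intervals and are set beside all protein-coding genes. Named with values were the members with a promoter peak or a gene body peak in 1 list only, the 5 highest and 5 lowest read ratios, the 3 members with the most line-only gene body peaks of each list, the type IV pairs and the listed matrix genes with a promoter peak in 1 list only; others are marked. The members and lists were chosen with earlier results of these data known. Alternatives were other q thresholds, equal numbers of peaks, scaling to equal depth, other windows and other overlaps. Python 3.11.15, NumPy 2.4.6, SciPy 1.17.1 and Matplotlib 3.10.9 were used. Values of 1 member and 1 marker gene are not reported here, though both enter the counts.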

Additional observations from a re-analysis of the deposited data

How the results depend on the processing

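No paired analysis was possible because each line has 1 merged list, and for the same reason no replicate could be left out. Of the values computed under other settings, 34 moved little and 33 moved more. The promoter counts are small and depended on the setting. In C4-2B only, the 2 promoters became 6 at a −log10 q of 10, 1 with equal numbers of peaks, 1 when line-only peaks had to be strong, 1 with 1 start site per gene, 1 for a peak over the main start site and 0 among the top 50000 peaks. In C4-2BER only, the 2 became 4 at a −log10 q of 5, 4 at 10, 4 with equal numbers, 7 among the top 50000, 1 when strong and 9 over the main start site. The 45 promoters open in both lines became 28 among the top 50000 and 24 over the main start site. The 1 gene body open in C4-2B only became 4 at a −log10 q of 10, 2 among the top 50000 and 2 without promoter windows, and the 0 in C4-2BER only became 2 among the top 50000. The C4-2B-only share of gene body peaks was 46.4% at a −log10 q of 10, 32.8% with equal numbers, 28.1% when strong and 49.3% at 50% reciprocal overlap. The C4-2BER-only share was 14.3% at 5, 12.3% at 10, 29.5% with equal numbers, 37.6% among the top 50000, 5.26% when strong, 34.8% at reciprocal overlap and 27.4% for summits within 200 bp. The C4-2B-only share was the higher one in each of 8 alternatives, but among the top 50000 peaks it was 37.9% against 37.6%. Ratio intervals above 1 became 0 of 45 after division by the median of all genes, and those below 1 became 1 at the main start site only, and with every overlapping pair of promoter peaks both became 7; these and the main start site counts were added after the data were seen. The cause of these shifts was not tested.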
